A study of Mus musculus with 2 samples.

Results

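The genes described here build the intercalated disc, the junction that joins heart muscle cells end to end. They are 10 genes chosen by name, with earlier results of these data known, of the 55401 gene identifiers counted in each library. The set holds the desmosome genes Dsp, Dsg2, Jup and Pkp2, the fascia adherens genes Cdh2 and Ctnna3, and the connexin genes Gja1, Gja4, Gja5 and Gjc1. All 10 were found in the mouse annotation GENCODE M21 and all reached 1 CPM (read count divided by the scaled library size and multiplied by 1e6) in both libraries. RNA came from frozen hearts of C57BL/6 mice in 2 groups. The dioscin group received dioscin, a saponin from yam plants, for 4 weeks after transverse aortic constriction (TAC), an operation that tightens the aortic arch so that the left ventricle pumps against high pressure. The TAC group had the same surgery, and a group without surgery was not analysed here. A time was recorded for the dioscin sample only. Whether the 2 groups were taken at the same time after surgery is therefore not known here. There was 1 library for each group, from a number of hearts that the labels leave unstated. The protocol text is the same for both samples, and the treatment label of the TAC sample reads only TAC. That the TAC sample got no dioscin was inferred from this label.

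Desmosomes are spot-like junctions in which desmosomal cadherins bridge the gap between cells and plakoglobin, plakophilin and desmoplakin tie them to the desmin filaments. In the fascia adherens, N-cadherin and the catenins tie the actin of the last sarcomere to the cell border. Gap junctions are channels made of connexins that carry the electrical impulse from cell to cell, and the heart's chambers, conduction system and vessels use different connexins. Inherited variants in desmosome genes are a known cause of arrhythmogenic cardiomyopathy, and a lower or misplaced main ventricular connexin is a known feature of overloaded hearts.

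With 1 library per group there is no replicate check and no test of the treatment. Each ratio below is the dioscin library over the TAC library, from counts scaled by TMM (a trimmed-mean scaling of library size), with an exact 95% interval that covers counting error and nothing else. A gene is called higher or lower, and is said to pass the size rule, where its ratio reached 2 or fell to 0.5, its interval excluded 1 and its level was 1 CPM or more in at least 1 library. The dioscin library held 17612259 counts in genes and the TAC library 16782741. The working heart muscle markers were abundant in both, with a summed level of 53110 CPM over 12 genes in the dioscin library and 45649 CPM in the TAC library. The libraries stood apart in markers of other parts of the heart. The 10 atrial muscle markers summed to 18650 CPM in the dioscin library and 754 CPM in the TAC library, where Mybphl and Bmp10 were at 0 counts. Bmp10 was below 1 CPM in the dioscin library as well. The 8 mesothelial markers summed to 153 CPM in the dioscin library and 18.5 CPM in the TAC library, with Krt8 and Krt18 at 0 counts in the TAC library. In such tissue RNA, fewer cells of a type and less RNA per cell cannot be told apart.

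Of the 10 junction genes, 1 was higher (Gja5), none was lower and 9 stayed inside a 2-fold difference. The same rule called 19.3% of the 15697 genes with 1 CPM or more, 10.5% as higher and 8.77% as lower, so 1 of 10 lies near the background. The median log2 ratio of the 10 genes was 0.08, against 0.01 over all genes at or above 1 CPM. Ratios above 1 were found for 6 of the 10, against 50.6% of those genes, and intervals that excluded 1 also for 6 of the 10, against 67.1%. At a fold of 1.5 in place of 2, Gja5 and Pkp2 passed as higher and Gja1 and Gjc1 as lower, where 38.2% of all genes passed, 20.3% as higher and 17.9% as lower.

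**Figure D1:**
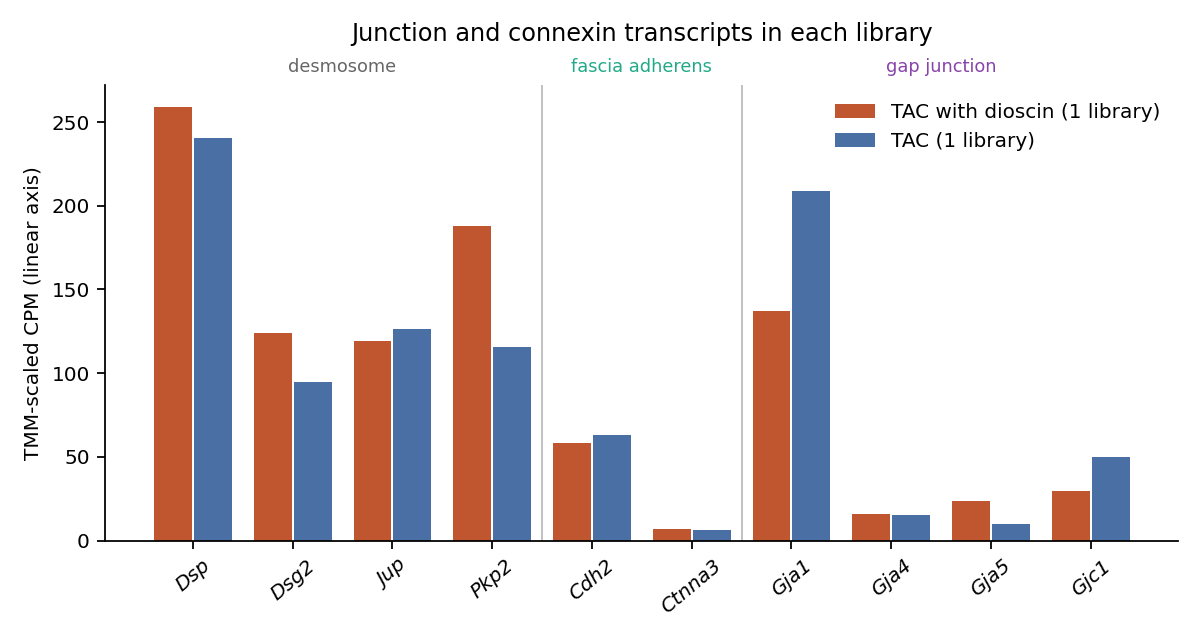
TMM-scaled CPM (linear axis) of the 10 junction genes, with the dioscin library left of the TAC library and 1 library each, so no error bar is drawn. Dsp is the tallest pair at 259 CPM in the dioscin library and 241 CPM in the TAC library, and the pairs that differ most to the eye are Pkp2 and Gja1.

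The connexin genes gave both ends of the range. Gja5 encodes the connexin of atrial muscle, of the ventricular conduction system and of arterial endothelium (ENSMUSG00000057123.14; chromosome 3, 96904693 to 97077416 on GRCm38). It had 406 counts and 23.7 CPM in the dioscin library, against 176 counts and 10.2 CPM in the TAC library. That is a ratio of 2.32 (1.95 to 2.79), the highest of the 10 and the only one past the size rule, with a lower bound just under 2. When the libraries were scaled to the working heart muscle markers instead, its log2 ratio was 0.88 and the call was lost.

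Gja1 encodes the main connexin of ventricular muscle, also made by fibroblasts and smooth muscle (ENSMUSG00000050953.10; chromosome 10, 56377330 to 56402513). It had 2348 counts and 137 CPM in the dioscin library, against 3610 counts and 209 CPM in the TAC library, a ratio of 0.656 (0.623 to 0.691), or 1.52-fold less in the dioscin library. Gjc1, the connexin of the nodes and of the early heart, also found in smooth muscle (ENSMUSG00000034520.14; chromosome 11, 102799579 to 102819700), had 508 counts and 29.7 CPM in the dioscin library and 866 counts and 50.1 CPM in the TAC library. Its ratio of 0.592 (0.529 to 0.661) was the lowest of the 10 and stayed inside 2-fold, but with the libraries scaled to the working heart muscle markers its log2 ratio was -1.10 and it passed as lower. Gja4, a connexin of arterial endothelium (ENSMUSG00000050234.7; chromosome 4, 127311421 to 127314039), had 272 counts and 15.9 CPM in the dioscin library and 265 counts and 15.3 CPM in the TAC library. Its ratio of 1.04 (0.871 to 1.23) had an interval that held 1.

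Set against each other inside a library, where library scaling drops out, the connexins were in different proportions. For each Gja1 read there were 0.173 Gja5 reads in the dioscin library and 0.0488 in the TAC library, a 3.55-fold difference (2.94 to 4.29). Gja5 per Gjc1 read was 0.799 in the dioscin library and 0.203 in the TAC library, a 3.93-fold difference (3.18 to 4.87). Gja5 per Gja4 read, a comparison of the genes that arterial endothelium shares, was 1.49 in the dioscin library and 0.664 in the TAC library, a 2.25-fold difference (1.75 to 2.89). Gjc1 per Gja1 read was 0.216 in the dioscin library and 0.240 in the TAC library, and the interval of that difference held 1 (0.902, 0.797 to 1.02). Gja4 per Gja1 read was 0.116 in the dioscin library and 0.0734 in the TAC library, a 1.58-fold difference (1.32 to 1.89). The pairs were picked after their values were seen, and the intervals cover counting error only.

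**Figure D2:**
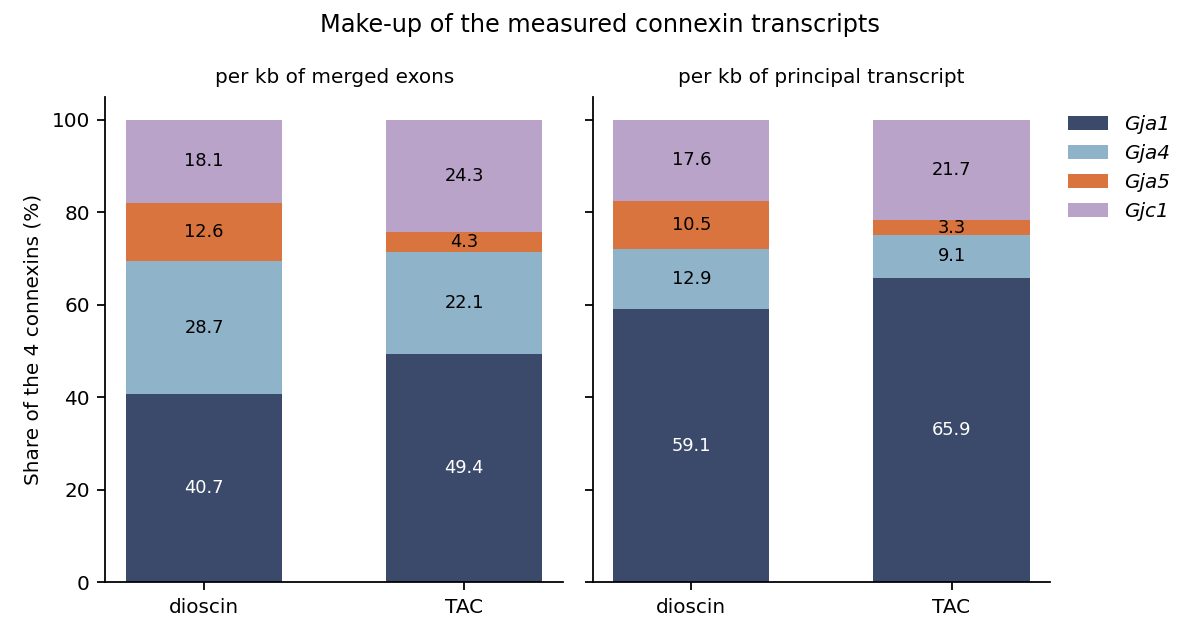
Share (%) of each of the 4 connexins in their summed level per kilobase, with the dioscin library left of the TAC library, for lengths from merged exons and from the principal transcript. Under both lengths the Gja5 band is wider in the dioscin library and the Gja1 and Gjc1 bands are narrower.

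As levels per kilobase of merged exons, Gja5 made up 12.6% of the 4 connexins in the dioscin library and 4.30% in the TAC library. Gja1 made up 40.7% in the dioscin library and 49.4% in the TAC library. Gjc1 made up 18.1% in the dioscin library and 24.3% in the TAC library, and Gja4 28.7% in the dioscin library and 22.1% in the TAC library. The merged exons of Gja1 span 10257 bases, against 3182 in its principal transcript as marked by APPRIS, so its level per length depends on that choice. Per kilobase of the principal transcript, a length chosen after seeing the data, Gja1 made up 59.1% in the dioscin library and 65.9% in the TAC library, and Gja5 10.5% in the dioscin library and 3.29% in the TAC library. The summed level of the 4 connexins per kilobase of merged exons was 32.9 CPM in the dioscin library and 41.3 CPM in the TAC library.

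The promoters of Gja5 and Gja1 are shown because these genes had ratios on opposite sides of 1 and because 2 factors known in mice to act on Gja5, Tbx5 and Nkx2-5, were higher in the same library, though Nkx2-5 not under every scaling. Each line gives the 250 bases before the start of the gene in the RefSeq table (GRCm38.p6), on the strand of the gene, which is the plus strand for both, with letters that match a searched motif in capitals. The Gja5 window is chr3:97032152-97032401 and the Gja1 window chr10:56377050-56377299. The Gja5 window lies inside the GENCODE span of the gene given above, so the RefSeq start used here is not the GENCODE start. The Gja1 window ends at 56377299, short of the GENCODE start at 56377330, so its RefSeq start differs as well.
Gja5: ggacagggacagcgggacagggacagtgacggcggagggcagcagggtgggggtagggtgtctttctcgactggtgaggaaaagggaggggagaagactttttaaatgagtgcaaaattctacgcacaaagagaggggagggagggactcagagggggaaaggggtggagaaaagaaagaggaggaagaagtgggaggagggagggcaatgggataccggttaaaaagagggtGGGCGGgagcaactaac
Gja1: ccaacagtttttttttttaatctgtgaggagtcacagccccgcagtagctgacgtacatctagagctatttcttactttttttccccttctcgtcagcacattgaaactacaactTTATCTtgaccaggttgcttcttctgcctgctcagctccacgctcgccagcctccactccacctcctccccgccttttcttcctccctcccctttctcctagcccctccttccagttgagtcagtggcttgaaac

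Searched on both strands were the T-box letters GGTGTNA, the NKX2-5 letters TNAAGTG, the GATA letters AGATAA, the TATA letters TATAAA and the GC box GGGCGG, none of which overlapped another in these windows. The Gja5 window held 1 GC box, which 32.7% of all 32851 promoter windows of that length hold. The Gja1 window held 1 GATA match on the other strand, and 9.99% of all windows hold one. Neither window held the T-box letters (8.61% of all windows) or the NKX2-5 letters (10.1%), which says only that those letters are not in these 250 bases. The table held windows for 6 of the 10 genes, which are Dsp, Jup, Ctnna3, Gja1, Gja4 and Gja5.

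Given next are 4 marker lists for tissue that uses Gja5 or lies beside it. The part of any of them in the Gja5 ratio was not tested, and with 1 library per group no likeness of patterns was measured. Over all genes at or above 1 CPM, the size rule called 10.5% as higher and 8.77% as lower. Counts near these shares say nothing particular about a marker list. Of the 10 atrial markers, 9 reached 1 CPM and all 9 were higher (median log2 ratio 7.12), with Myl7 at 1759 CPM in the dioscin library and 0.753 CPM in the TAC library. The call of the atrial marker Nr2f2 was lost with scaling to total gene counts without mitochondrial genes (log2 ratio 0.96) and to working heart muscle markers (0.82). The conduction system list mixes markers of the ventricular conduction system with markers of the nodes, so it covers users of Gjc1 as well as of Gja5. Of its 7 markers that reached 1 CPM, 3 were lower and none was higher. Cntn2, a Purkinje fibre adhesion protein, was at 0.759 CPM in the dioscin library and 12.7 CPM in the TAC library, and Hcn4, the pacemaker channel, at 1.17 CPM in the dioscin library and 6.25 CPM in the TAC library. The conduction list summed to 40.6 CPM in the dioscin library and 72.3 CPM in the TAC library, with Gjd3 at 0 counts in both. In all, 1 of the 10 conduction markers was at 0 counts in the dioscin library and 3 in the TAC library. Arterial endothelial markers were mixed, with 2 of 11 higher (Bmx at 3.53-fold and Fbln5 at 2.49-fold) and 3 lower (Dll4 by 3.65-fold, Unc5b by 2.49-fold and Cxcr4 by 2.18-fold), with a median log2 ratio of -0.35. They summed to 350 CPM in the dioscin library and 437 CPM in the TAC library, with none at 0. The Fbln5 call was lost with scaling to working heart muscle markers (log2 ratio 0.97), and the Cxcr4 call with scaling to endothelial markers (-0.94). Among the ventricular markers, 1 of 8 was lower and none was higher. That gene was Irx4, a ventricular transcription factor, at 12.3 CPM in the dioscin library and 51.9 CPM in the TAC library. The ventricular list summed to 12864 CPM in the dioscin library and 14160 CPM in the TAC library.

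Markers of other cell types, among them users of Gja1 and Gjc1, went both ways, and their part in the Gja1 and Gjc1 ratios was not tested. The background shares for their counts are again 10.5% higher and 8.77% lower. The smooth muscle and pericyte list had 1 of 10 higher and 2 lower, with a summed level of 1486 CPM in the dioscin library and 1539 CPM in the TAC library. Its median log2 ratio was -0.28, and 5 of its 10 genes had ratios above 1. Its lower genes were Cspg4 (18.1 CPM in the dioscin library, 54.5 CPM in the TAC library) and Notch3 (25.9 CPM in the dioscin library, 64.5 CPM in the TAC library), and none of the list was at 0. Its higher gene was Cnn1, a calponin of smooth muscle, with a ratio of 2.08 (1.65 to 2.65), and the contractile genes Myh11, Tagln and Acta2 had ratios of 1.36, 1.34 and 1.31. The Cnn1 call was lost with scaling to total gene counts (log2 ratio 0.97), to totals without mitochondrial genes (0.85) and to working heart muscle markers (0.71). The fibroblast list had 5 of 10 higher, none lower and a summed level of 3683 CPM in the dioscin library and 1340 CPM in the TAC library. Of these calls, that of Dpt was lost with scaling to working heart muscle markers (log2 ratio 0.89). Of 10 endothelial markers, 1 was higher and 1 lower, with 1712 CPM in the dioscin library and 1904 CPM in the TAC library. The higher one, Pecam1, lost its call with totals without mitochondrial genes (log2 ratio 0.93) and with working heart muscle markers (0.79). Of 10 macrophage markers 2 were higher and 2 lower, with 396 CPM in the dioscin library and 233 CPM in the TAC library. The lower call of Fcgr1 was lost with scaling to endothelial markers (log2 ratio -0.98). Of the 6 fat cell markers that reached 1 CPM, 5 were higher, and of 6 such melanocyte and Schwann cell markers 2 were higher. Among the fat cell calls, Plin1 was lost with scaling to working heart muscle markers, and Adipoq, Plin1 and Cidec with a filter at 5 CPM. A few genes, such as Gjd3, Irx3 and Cdh5, stand both in a marker list and in one of the 8 lists of other genes described further on.

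**Figure D3:**
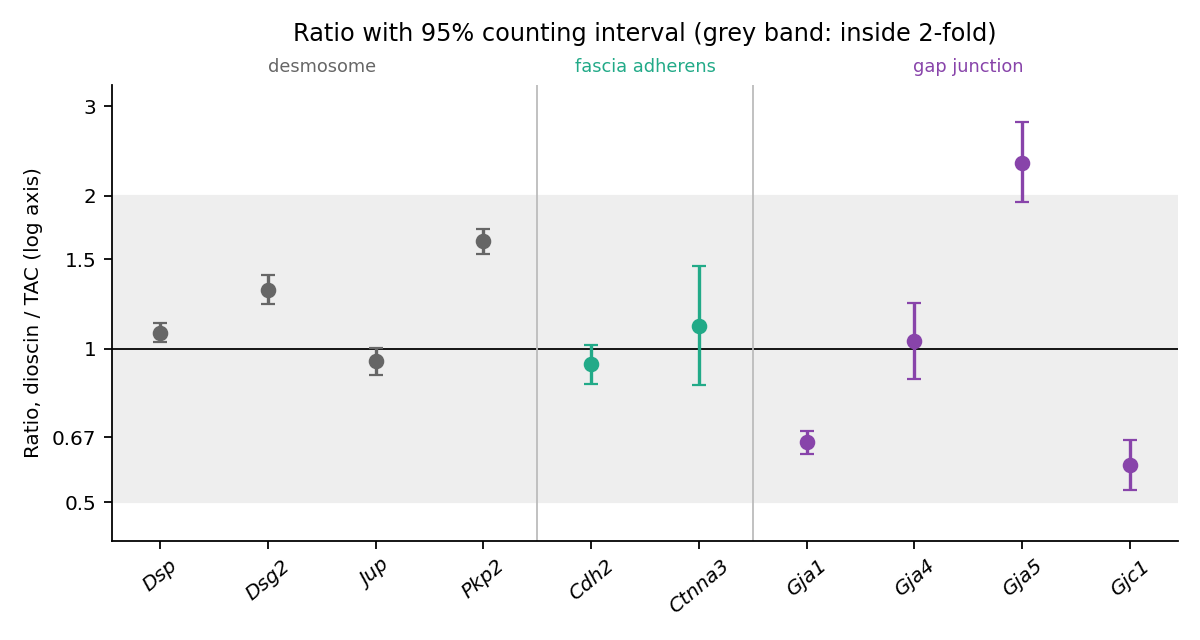
Ratio, dioscin over TAC (log axis), for the 10 genes, with the 95% counting interval of each as bars and the range inside 2-fold in grey. Gja5 is the 1 point above the band, at 2.32, and Gjc1 is the lowest, at 0.592.

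Among the desmosome genes, Pkp2 had the largest ratio. It encodes plakophilin 2, the armadillo protein that links the desmosomal cadherins to desmoplakin (ENSMUSG00000041957.15; chromosome 16, 16213318 to 16272712), and had 3217 counts and 188 CPM in the dioscin library, against 1993 counts and 115 CPM in the TAC library. The ratio was 1.63 (1.54 to 1.72), inside 2-fold, with an interval above 1. Dsg2, the desmosomal cadherin of heart muscle (ENSMUSG00000044393.15, on chromosome 18), had 2119 counts and 124 CPM in the dioscin library and 1635 counts and 94.7 CPM in the TAC library, a ratio of 1.31 (1.23 to 1.40). Dsp, desmoplakin, the plaque protein that holds desmin (ENSMUSG00000054889.10; chromosome 13, 38151294 to 38198577), was the most abundant of the 10 in CPM. It had 4434 counts and 259 CPM in the dioscin library and 4158 counts and 241 CPM in the TAC library, a ratio of 1.08 (1.03 to 1.12). Jup, plakoglobin, which serves in desmosomes and in the fascia adherens (ENSMUSG00000001552.14; chromosome 11, 100368958 to 100397763), had 2044 counts and 119 CPM in the dioscin library and 2178 counts and 126 CPM in the TAC library. Its ratio of 0.947 (0.891 to 1.01) had an interval that held 1.

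Desmosome genes were also set against each other inside a library. For each Jup read there were 1.57 Pkp2 reads in the dioscin library and 0.915 in the TAC library, a 1.72-fold difference (1.58 to 1.87). Pkp2 per Dsp read was 0.726 in the dioscin library and 0.479 in the TAC library, a 1.51-fold difference (1.41 to 1.62). Dsg2 per Jup read was 1.04 in the dioscin library and 0.751 in the TAC library, a 1.38-fold difference (1.26 to 1.51). These ratios do not depend on library scaling. The pairs were picked after their values were seen, and the intervals cover counting error only.

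The fascia adherens genes had intervals that held 1. Cdh2, N-cadherin, the adhesion protein of the disc (ENSMUSG00000024304.14, on chromosome 18), had 1003 counts and 58.6 CPM in the dioscin library, against 1085 counts and 62.8 CPM in the TAC library, a ratio of 0.933 (0.855 to 1.02). Ctnna3, the alpha-catenin of heart muscle that also binds plakophilin 2 (ENSMUSG00000060843.11; chromosome 10, 63430098 to 65003667), was the scarcest of the 10 in CPM. It had 118 counts and 6.89 CPM in the dioscin library and 107 counts and 6.20 CPM in the TAC library, a ratio of 1.11 (0.849 to 1.46).

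As levels per kilobase of merged exons, Pkp2 stood highest in both libraries, at 35.1 CPM in the dioscin library and 21.5 CPM in the TAC library, and Ctnna3 lowest, at 0.954 CPM in the dioscin library and 0.857 CPM in the TAC library. Dsp was at 26.8 CPM per kilobase in the dioscin library and 24.9 in the TAC library. Gja1 was at 13.4 CPM per kilobase in the dioscin library, below Dsg2 at 14.97, and at 20.4 in the TAC library, above Dsg2 at 11.5. With principal transcript lengths, Gja1 came to 43.1 CPM per kilobase in the dioscin library, under Pkp2 at 64.4, and to 65.7 in the TAC library, above Pkp2 at 39.6.

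The scaling of the libraries decides the sign of the smaller ratios. Gja5, Pkp2 and Dsg2 had ratios above 1, and Gja1 and Gjc1 below 1, under all 6 scalings tried. The signs of Dsp, Ctnna3 and Gja4 turned negative, and those of Jup and Cdh2 positive, under at least 1 scaling. Scaled to the 12 working heart muscle markers, which moves the log2 ratio of every gene by -0.34, Pkp2 had 0.36, Dsp -0.24, Jup -0.42, Cdh2 -0.44 and Gja1 -0.95. Scaled to the 10 endothelial markers, an alternative chosen after seeing the data that moves every log2 ratio by 0.19, Pkp2 had 0.89 and Gja1 -0.42. Leaving the mitochondrially encoded genes out of the totals moved every log2 ratio by -0.21 and left Gja5 at 1.01.

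**Figure D4:**
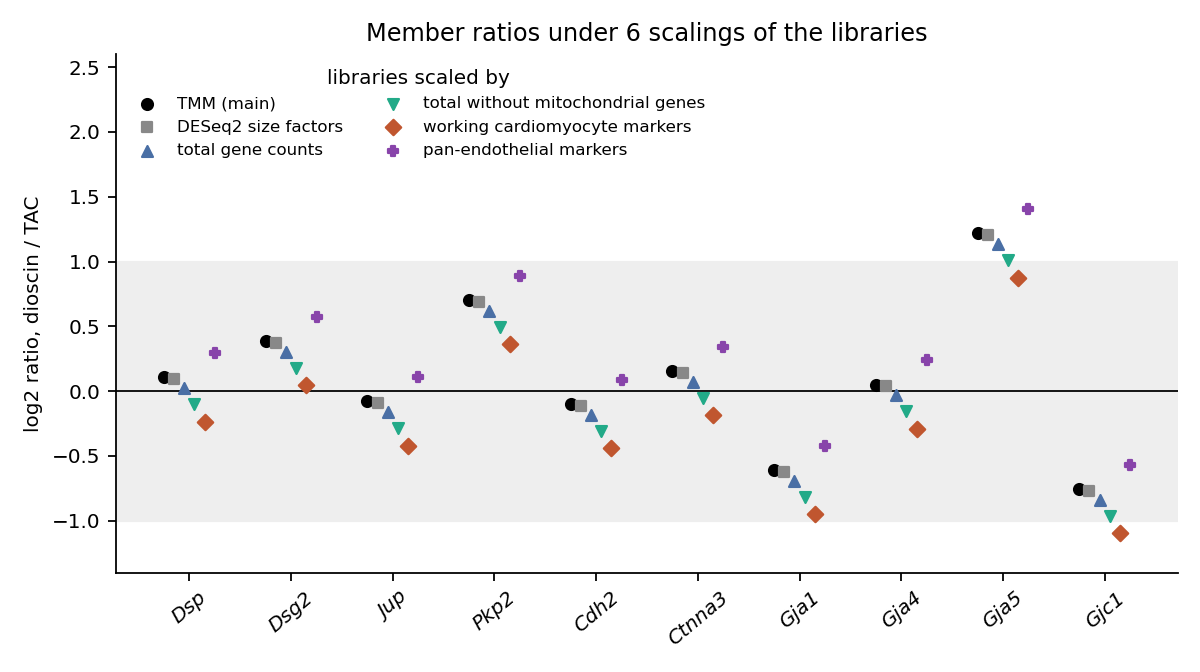
Log2 ratio, dioscin over TAC, for the 10 genes under 6 scalings of the libraries, with the range inside 2-fold in grey. Gja5 lies above 0 and Gja1 and Gjc1 below 0 under every scaling drawn, whereas the points of Dsp, Jup, Cdh2, Ctnna3 and Gja4 fall on both sides of 0.

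Around these 10 genes, 100 other genes were listed in 8 groups. These are other genes of the disc, other cadherins, connexins and pannexins, and transcription factors that act on connexin genes. Of the 100, 71 reached 1 CPM, 12 were higher and 4 lower. Their median log2 ratio was 0.21, against 0.01 over all genes at or above 1 CPM. In that background of 15697 genes, the size rule called 10.5% as higher and 8.77% as lower. The same shares apply beside the counts for each list below, though each list is short. The lists were chosen with earlier results of these data known. Their counts and medians therefore describe the lists and are no test against the background.

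Of 7 other desmosome genes with 1 CPM or more, 3 were higher and 1 lower, with a median log2 ratio of 0.85. The 4 genes past the size rule are known mainly from epithelia. Ppl, periplakin, had 884 counts in the dioscin library and 210 in the TAC library, a ratio of 4.24 (3.65 to 4.96). Perp, a membrane protein of epithelial desmosomes, had 1407 counts in the dioscin library and 524 in the TAC library, a ratio of 2.71 (2.45 to 3.0005). Evpl, envoplakin, had 70 counts in the dioscin library and 27 in the TAC library, a ratio of 2.59 (1.66 to 4.24). Pkp3, an epithelial plakophilin, had 3 counts in the dioscin library and 20 in the TAC library, a ratio of 0.172 (0.0288 to 0.510). Mesothelium, a lining epithelium, differed in the same libraries, with 7 of 8 markers higher and a summed level of 153 CPM in the dioscin library and 18.5 CPM in the TAC library, and its part in these ratios was not tested. Of the muscle partners, Dsc2, which pairs with Dsg2 in heart muscle, had a ratio of 1.72 (1.57 to 1.88), and Des, desmin, had 1385 CPM in the dioscin library and 768 CPM in the TAC library, a ratio of 1.80 (1.76 to 1.84). Dsc2 per Dsg2 read was 0.639 in the dioscin library and 0.486 in the TAC library, a 1.32-fold difference (1.18 to 1.47). The epidermal members Dsc1, Dsg1b, Dsg1c and Dsg4 were at 0 counts in both libraries.

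Other adherens junction genes had 1 of 11 higher and 1 lower, with a median log2 ratio of 0.32. Afdn, afadin, which ties nectins to actin, had 2545 counts in the dioscin library and 5846 in the TAC library, and was 2.28-fold lower (2.17 to 2.39). Pkp4, a catenin-like relative of the plakophilins, had 3325 counts in the dioscin library and 1453 in the TAC library, 2.31-fold higher (2.17 to 2.46), a call lost with heart muscle scaling (log2 ratio 0.87). Pkp4 per Pkp2 read was 1.03 in the dioscin library and 0.729 in the TAC library. Ctnna1, the widely expressed alpha-catenin, had a ratio of 1.54 (1.48 to 1.60) and 58.5 reads per Ctnna3 read in the dioscin library, against 42.3 in the TAC library. Of the 9 genes that anchor actin at the disc, 1 was lower and none higher. That gene was Xirp2, a Xin-repeat protein that binds actin at the disc, with 4424 counts in the dioscin library and 9077 in the TAC library, 2.03-fold lower (1.96 to 2.11). With endothelial scaling its log2 ratio was -0.84 and the call was lost, and the list then held 1 higher and 0 lower. The nebulin-like Nrap had a ratio of 1.21 (1.17 to 1.26) under the main scaling.

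Channels and receptors of the disc held 3 of 12 higher (median log2 ratio 0.08). Popdc3 and Bves, membrane proteins of the Popeye family that bind cyclic AMP, were 3.0002-fold (2.43 to 3.75) and 2.17-fold higher (1.87 to 2.52), and the ankyrin gene Ank3 was 2.06-fold higher (1.85 to 2.29). The Ank3 call was lost with total gene counts (log2 ratio 0.96), and the Ank3 and Bves calls with totals without mitochondrial genes (0.83 and 0.91) and with heart muscle scaling (0.70 and 0.77). Popdc2, of the same family, had a ratio of 1.65 (1.55 to 1.75). Among 11 connexin partners and trafficking genes, none passed in either direction, and the most abundant were Nedd4, a ubiquitin ligase known to bind the Gja1 protein, with a ratio of 1.67 (1.60 to 1.74), and the scaffold Tjp1, with 0.911 (0.853 to 0.972).

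Transcription factors known in mice to act on connexin genes had 2 of 12 higher and none lower, with a median log2 ratio of 0.21. Tbx5, an activator of Gja5 whose own level is known to be higher in atrial than in ventricular muscle, had 1019 counts in the dioscin library and 110 in the TAC library, 9.31-fold higher (7.67 to 11.5). Nkx2-5, the cardiac homeobox factor, had 383 counts in the dioscin library and 182 in the TAC library, 2.12-fold higher (1.78 to 2.55), a call lost with totals without mitochondrial genes (log2 ratio 0.88) and with heart muscle scaling (0.74). Hopx, its homeodomain-only partner, had a ratio of 1.67 (1.52 to 1.84), with an antisense gene over 27.2% of its exonic length, and Gata4 had 1.10 (0.984 to 1.23). Neither Tbx5 nor Nkx2-5 was tested for a part in the Gja5 ratio, and the atrial markers that reached 1 CPM were higher in the same library.

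**Figure D5:**
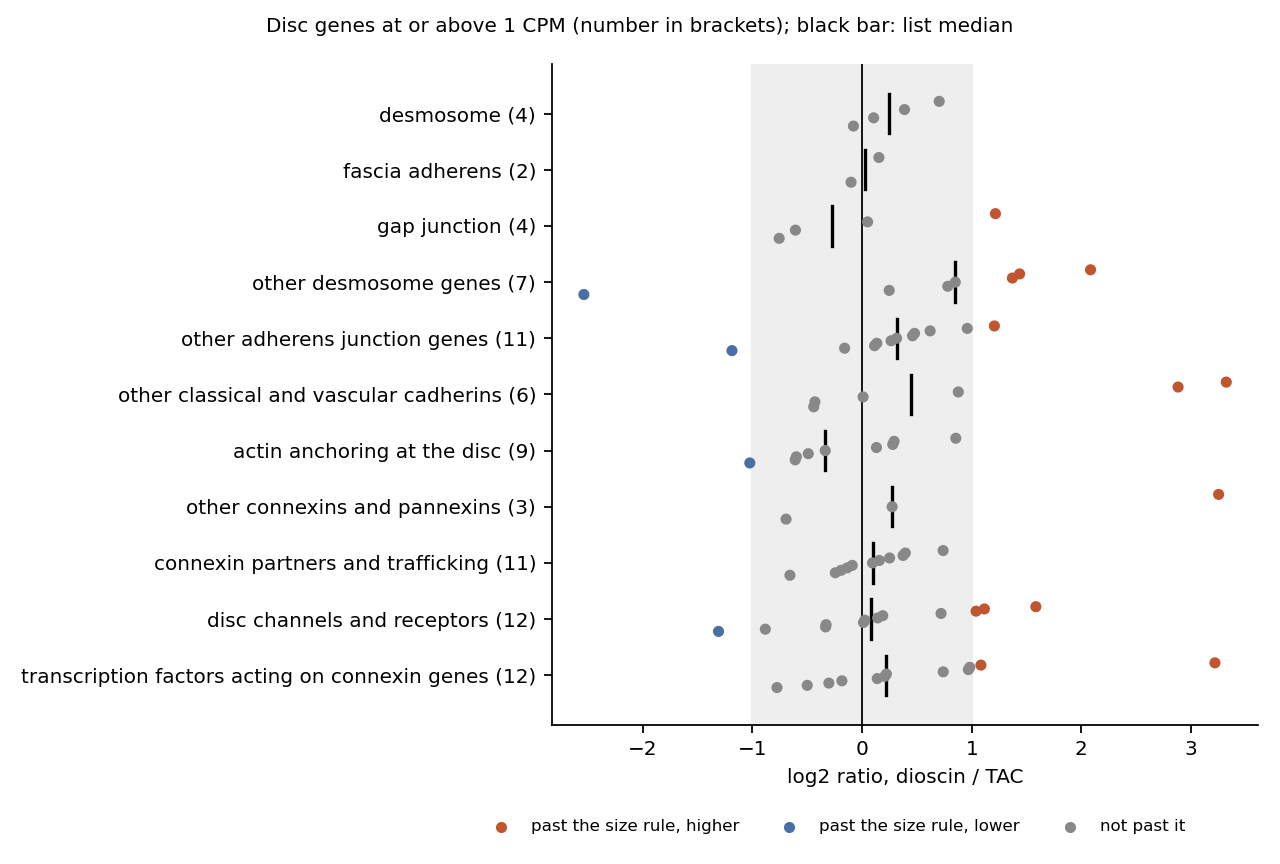
Log2 ratio, dioscin over TAC, for each gene at or above 1 CPM in the 3 groups of junction genes and the 8 lists of other genes, with list medians as black bars and the range inside 2-fold in grey. Gja5 is the 1 coloured point among the junction genes, and the medians run from -0.34 for actin anchoring to 0.85 for other desmosome genes.

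Reads of the 10 genes could be shared with few other genes. The exons of Dsp, Dsg2 and Gja5 overlap opposite-strand genes over 5.17%, 3.99% and 2.87% of their length, and the strand setting of the counts is not given, while the other 7 have no overlap. A stretch of 856 bases in a Gja5 transcript matches a Zfp697 transcript at 99.4% identity. Zfp697 had 1094 counts in the dioscin library and 780 in the TAC library. Reads with several alignments were set apart in the deposited counts, so such a stretch would lose reads in both libraries.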

How the data were processed

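Libraries were prepared with a TruSeq kit, per the labels' protocols. The authors deposited unnormalized read counts for each gene, made with HISAT2 2.1.0 and HTSeq on mm10, per the submitters' processing notes. Not given in the sources used here are strand setting, annotation and HTSeq version. Lines of unassigned reads, 5 in each file, were left out, including reads with several alignments (36.5% of all lines counted in the dioscin library, 38.2% in the TAC library).

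Of 55401 identifiers, 55141 matched GENCODE M21 (GRCm38, the build mm10 names) without version numbers. Counts were scaled with TMM (edgeR 4.0.16, R 4.3.3). Log2 ratios used a pseudocount of 0.5, and intervals are exact Clopper-Pearson intervals of 2 counts (SciPy 1.17.1). PCR copies were not told apart. The size rule was checked on simulated counts with planted changes and counting error only, which cannot cover differences between mice or between pieces of tissue. Motifs and gene overlaps were searched with Python 3.11.15, and copies with blastn at 95% identity over at least 300 bases.

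The members and lists were chosen with earlier results of these data known. Named were all members, and of each list up to 4 genes past the size rule, taken by how far the interval stayed from 1, and the 2 most abundant. Alternatives were DESeq2 1.42.0 size factors, other scalings, a pseudocount of 2, no filter or 5 CPM, a fold of 1.5 and protein-coding genes alone. Endothelial scaling and principal transcript lengths were added after seeing the data. One listed gene is not reported here.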

Additional observations from a re-analysis of the deposited data

How the results depend on the processing

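No paired analysis was possible because each group had 1 library. The count of higher and lower junction genes (1 and 0) was 0 and 1 with scaling to working heart muscle markers, and 2 and 2 at a fold of 1.5. It held under DESeq2 size factors, both totals, a pseudocount of 2, no filter, 5 CPM, protein-coding genes alone and scaling to endothelial markers. The median of the 10 genes (0.08) was -0.26 with heart muscle scaling and 0.26 with endothelial scaling. Over all genes (1655 higher, 1377 lower), heart muscle scaling gave 957 and 2752, totals without mitochondrial genes 2286 lower, 5 CPM 1045 and 695, and a fold of 1.5 3187 and 2815. Of the 100 other listed genes (12 higher, 4 lower), heart muscle scaling gave 8 and 7, totals without mitochondrial genes 9 and 5, 5 CPM 9 and 3 (Evpl, Cdh3, Panx2 and Pkp3 fell below it), endothelial scaling 18 and 3, and a fold of 1.5 gave 23 and 10. Among the shares of the connexin total, counts not divided by length gave 66.4% and 73.4% for Gja1, 7.70% and 5.39% for Gja4 and 14.4% and 17.6% for Gjc1 (dioscin library, then TAC library), and 3.58% for Gja5 in the TAC library. Per kilobase of the principal transcript, they were 59.1% and 65.9% for Gja1, 12.9% and 9.13% for Gja4 and 10.5% and 3.29% for Gja5, and 21.7% for Gjc1 in the TAC library. The shifts follow from the changed scale, filter, fold or length. Depth limits Ctnna3 most, and differences between mice were not measured.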

Other observations

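Outside the disc's own set, other cadherins and channel-forming genes were counted in the same libraries. Of 9 other cadherins, 6 reached 1 CPM and 2 were higher. Cdh11, the cadherin of fibroblasts and other mesenchyme, had 391 counts in the dioscin library and 39 in the TAC library, a ratio of 9.999 (7.27 to 14.4), far from the 0.933 of Cdh2. Cdh3, P-cadherin of epithelia, had 47 counts in the dioscin library and 6 in the TAC library, a ratio of 7.37 (3.37 to 22.6). Cdh5, the endothelial cadherin, had 240.2 CPM in the dioscin library and 238.7 CPM in the TAC library, a ratio of 1.01 (0.964 to 1.05), and Cdh13, T-cadherin, 1.84 (1.70 to 1.99).

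Of 19 other connexins and pannexins, 3 reached 1 CPM. Panx2, a pannexin that forms large-pore channels, had 42 counts in the dioscin library and 4 in the TAC library, a ratio of 9.53 (3.84 to 40.7), and Panx1 had a ratio of 1.21 (0.860 to 1.71). Gja3, a connexin best known in the eye lens, had 150 counts and 8.76 CPM in the dioscin library, against 245 counts and 14.2 CPM in the TAC library. Its ratio of 0.618 (0.501 to 0.760) lay between those of Gjc1 and Gja1. Gjd3, a connexin of the mouse conduction system, was at 0 counts in both libraries, which allows up to 0.175 CPM in the dioscin library and 0.174 CPM in the TAC library, for counting error only.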
